A study of Mus musculus with 3 samples.

Results

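The 10 genes described here encode the TGF-beta ligands (Tgfb1, Tgfb2 and Tgfb3), the subunits of activins and inhibins (Inha, Inhba and Inhbb) and the latent TGF-beta binding proteins (Ltbp1, Ltbp2, Ltbp3 and Ltbp4). They were found by symbol in a table of 33762 features, which holds all 10, each in 1 row. The table gives polyadenylated RNA from 3 segments of the gut, ileum, caecum and colon, of mouse embryos at stage E13.5. All embryos were wild type, of the strain labelled Bl6/C57, and untreated as far as the labels say. Each segment is 1 sample. The ileum was 1 of 3 portions of equal length cut from the small intestine, and the labels name no sorting of cells, so each sample mixes the cell types of its segment. The number of embryos in a sample is not given in the sources used here.

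TGF-betas are secreted as precursors whose cleaved propeptide stays wrapped around the mature ligand and keeps it latent. Latent binding proteins attach this complex to fibrillin and fibronectin in the matrix, and integrins or proteases later release the ligand. Activins are dimers of beta subunits, whereas inhibins pair the alpha subunit, the product of Inha, with a beta subunit and oppose activins. TGF-betas and activins signal through pairs of serine/threonine kinase receptors to Smad2 and Smad3. In the gut wall the family is known for acting on mesenchyme, smooth muscle and epithelium.

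Inhba, which encodes the beta A subunit of activin A, set the 3 segments apart more than any other of the 10 genes. It had 12, 66 and 221 counts in ileum, caecum and colon, so that it was nearly silent in the ileum and clearly counted in the colon. In bulk tissue, fewer cells of a type and less RNA per cell cannot be told apart. Tgfb2 and Tgfb3 followed the same order from ileum to colon with smaller steps. Ltbp1 and Ltbp2 were highest in the caecum, Ltbp4 was highest in the ileum, and Tgfb1, Inha and Ltbp3 stayed within 1.22-fold between any pair of segments. The plot of levels in each library shows these patterns together.

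**Figure D1:**
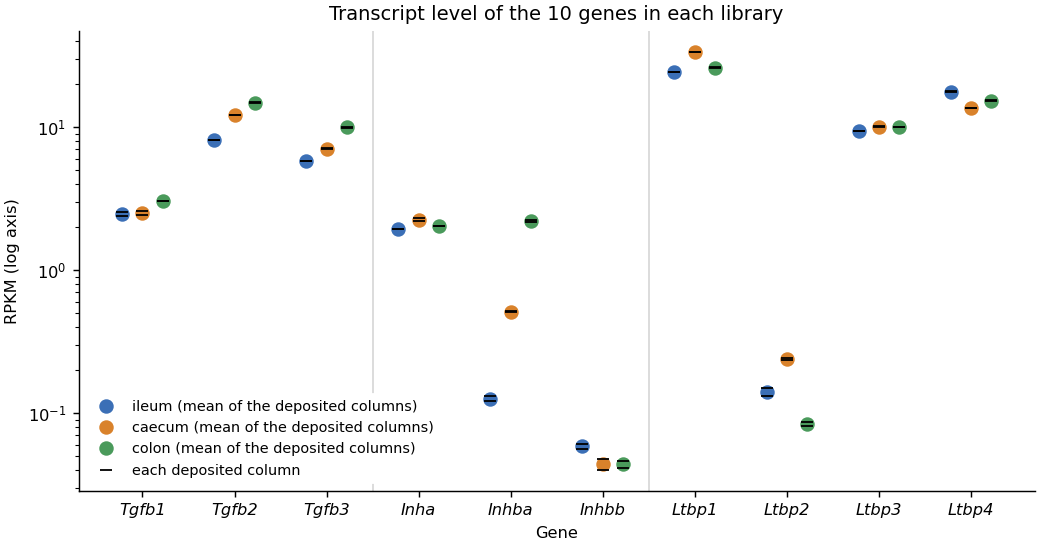
Level of each of the 10 genes in RPKM (reads scaled to transcript length and library depth, log axis) in ileum, caecum and colon libraries. Circles are the mean of the deposited columns of a segment and dashes are each column, which come from 1 sample. Inhba climbs from 0.126 to 2.20 RPKM between ileum and colon, Ltbp2 peaks at 0.238 RPKM in the caecum, and Ltbp3 lies between 9.37 and 10.1 RPKM throughout.

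The promoters of Inhba, Tgfb2 and Ltbp2 are shown because these genes carry the patterns along the gut: Inhba and Tgfb2 step up from ileum to colon and Ltbp2 peaks in the caecum. Each is the 250 bases before a RefSeq start site in GRCm38.p6, another build than that of the counts, printed 5′ to 3′ on the strand of the gene. Capitals mark matches on either strand to CAGAC, a SMAD half-site, to TATAAA, the TATA box, and to TTTATG, a core of the sites of CDX factors.
Inhba promoter, chr13:16011601-16011850, plus strand: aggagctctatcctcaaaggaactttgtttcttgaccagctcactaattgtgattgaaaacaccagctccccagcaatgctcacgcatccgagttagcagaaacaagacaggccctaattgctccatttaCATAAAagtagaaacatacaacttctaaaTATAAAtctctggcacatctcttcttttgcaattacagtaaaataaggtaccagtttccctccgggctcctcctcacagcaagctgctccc
Tgfb2 promoter, chr1:186705990-186706239, minus strand: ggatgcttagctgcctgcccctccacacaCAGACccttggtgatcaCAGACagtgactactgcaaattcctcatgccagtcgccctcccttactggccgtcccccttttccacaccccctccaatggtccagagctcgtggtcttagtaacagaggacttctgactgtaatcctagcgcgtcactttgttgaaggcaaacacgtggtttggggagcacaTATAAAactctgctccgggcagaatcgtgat
Ltbp2 promoter, chr12:84876492-84876741, minus strand: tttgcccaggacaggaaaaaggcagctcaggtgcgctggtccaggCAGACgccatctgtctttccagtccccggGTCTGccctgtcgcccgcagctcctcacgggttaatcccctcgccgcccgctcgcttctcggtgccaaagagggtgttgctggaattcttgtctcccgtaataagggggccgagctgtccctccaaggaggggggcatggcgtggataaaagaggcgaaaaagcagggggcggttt

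The Inhba window held 1 TATAAA, 91 bases before the start site, and 1 TTTATG on the minus strand, 120 bases before it, and it had no CAGAC. The Tgfb2 window held 1 TATAAA, 31 bases before the start, and CAGAC at 221 and 204 bases before it. The Ltbp2 window held CAGAC on the plus strand at 205 and on the minus strand at 176 bases before the start, and neither other motif. Over 32817 such windows, CAGAC matched in 42.2%, TATAAA in 12.4% and TTTATG in 10.8%, so a match to CAGAC is common. These matches describe letters and are no measure of binding. The windows of Inhba, Tgfb2 and Ltbp2 had 43.2%, 53.6% and 61.6% G and C, where the median window had 52.4%.

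The libraries held 50079617, 64439701 and 50772855 counts in ileum, caecum and colon, and 8, 9 and 9 of the 10 genes reached 20 counts in them. The authors' table has 2 columns for each segment, labelled as replicates. These columns differed by 0.422, 0.449 and 0.438 times the variance that counting alone would give, so they were averaged and read as 1 library. No difference below therefore has a replicate check or a p-value. Folds are ratios of counts scaled by TMM, with 95% intervals in brackets that cover counting error only. Whether a count stands for a read or for a fragment is not given in the sources used here, and if both reads of a fragment were counted the intervals are too narrow. A gene was compared when the higher library had at least 20 counts and was counted as apart at 2-fold or more. The segments matched their labels on Hoxd13, a homeobox gene of the hindgut end, with 1, 13 and 2354 counts in ileum, caecum and colon, and on Gata4, a transcription factor of the upper gut, with 702, 4 and 58.

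Between caecum and ileum, 1 of the 9 genes compared was 2-fold or more higher in the caecum, Inhba, and 0 were lower. Over all 17827 genes compared, 4.59% were higher and 2.52% lower by that rule. Between caecum and colon, 1 of 9 was higher in the caecum, Ltbp2, and 1 was lower, Inhba, against 5.11% and 2.74% of 17900 genes. Between colon and ileum, 1 of 9 was higher in the colon, again Inhba, and 0 were lower, against 4.04% and 4.29% of 17579 genes. Counts of 0 or 1 among 9 genes cannot be told apart from these shares, so the values of single genes follow. The median log2 fold of the 9 genes was 0.26, -0.16 and 0.08 for caecum against ileum, caecum against colon and colon against ileum, where the median of all genes compared was 0.009, 0.009 and -0.004. Inhbb, with 12, 12 and 10 counts, was under the minimum and entered none of these counts.

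**Figure D2:**
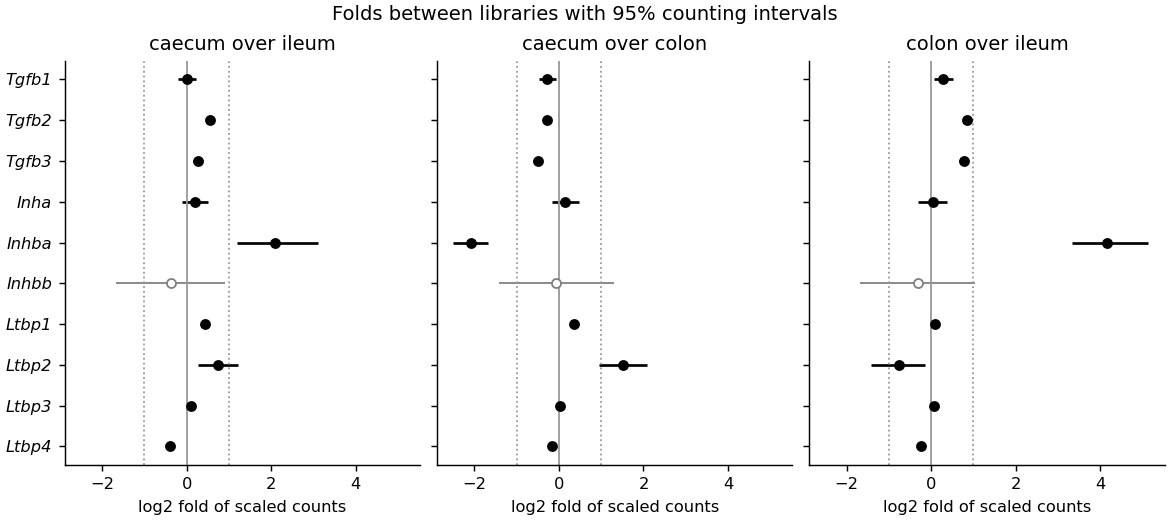
Log2 fold of scaled counts for each gene in the 3 comparisons, with 95% counting intervals. Dotted lines mark 2-fold, filled points are genes compared and the open point is Inhbb, which was under the count minimum. Inhba lies beyond the lines in every panel, Ltbp2 only for caecum over colon, and the other genes lie between the lines.

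The TGF-beta ligand genes were all highest in the colon library, and Tgfb2 was the most abundant of them in each segment. Tgfb2 (ENSMUSG00000039239, chromosome 1, 188447065 to 188529871 in mm9, minus strand) had 1972, 3792 and 3637 counts, or 8.13, 12.2 and 14.8 RPKM, in ileum, caecum and colon. It was 1.48-fold (1.40 to 1.56) above the ileum in the caecum and a further 1.21-fold (1.16 to 1.27) above the caecum in the colon. Both steps exceed counting error, and over the whole length from ileum to colon they came to 1.79-fold (1.70 to 1.89), just inside the 2-fold line. Of all genes compared between colon and ileum, 89.6% differed by less than Tgfb2.

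Tgfb3 (ENSMUSG00000021253, chromosome 12, 87397694 to 87419991, minus strand), the isoform known for its part in palate and lung development, had the same order as Tgfb2. Its 986, 1538 and 1722 counts were 5.82, 7.05 and 10 RPKM in ileum, caecum and colon. The larger of its steps lay on the colon side, at 1.42-fold (1.32 to 1.52) for colon over caecum, while caecum over ileum was 1.2-fold (1.11 to 1.30). For Tgfb2 the larger step lay on the ileum side. Colon over ileum was 1.70-fold (1.57 to 1.84) for Tgfb3.

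Tgfb1 (ENSMUSG00000002603, chromosome 7, 26472021 to 26490096, plus strand), the isoform that immune and endothelial cells are known to make, was the least abundant ligand of the 3. It had 316, 414 and 396 counts, or 2.46, 2.51 and 3.05 RPKM. Caecum and ileum did not differ beyond counting error, at 1.01-fold (0.868 to 1.17), and the colon was 1.21-fold (1.05 to 1.39) higher than the caecum. The deposited columns of 1 segment differed by up to 7.29% for the genes with at least 100 counts, and Tgfb1 is among these genes.

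Summed per length, the 3 ligands came to 16.4, 21.7 and 27.9 RPKM in ileum, caecum and colon. Tgfb2 made up 49.6%, 56.0% and 53.1% of these sums, Tgfb3 35.4%, 32.5% and 36.0%, and Tgfb1 15.0%, 11.6% and 10.9%. The ligand sum was thus higher in colon than ileum mainly through Tgfb2 and Tgfb3, while the make-up stayed much the same.

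The activin and inhibin genes behaved unlike each other. Inhba (ENSMUSG00000041324, chromosome 13, 16103684 to 16119044, plus strand) had 0.126, 0.513 and 2.20 RPKM in ileum, caecum and colon. It was 4.23-fold (2.27 to 8.60) above the ileum in the caecum and again 4.23-fold (3.20 to 5.66) above the caecum in the colon. The steps were of equal size on this scale, and the colon stood 17.9-fold (10 to 35.2) above the ileum. Of all genes compared between colon and ileum, 99.6% differed by less. The ileum value rests on 12 counts, which makes the folds against it the widest of those compared. On RPKM with a pseudocount of 0.1, which draws low values together, log2 colon over ileum was 3.35 where scaled counts gave 4.16, and caecum over ileum was 1.44 where they gave 2.08.

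Mesothelial markers, 5 genes with none at 0, summed to 51.8, 73.5 and 92.7 RPKM in ileum, caecum and colon, the same order as Inhba, Tgfb2 and Tgfb3. Singly, 3 of the 5 had that order, Upk3b, Wt1 and Krt19. Msln, with 0.227, 0.121 and 1.91 RPKM, and Lrrn4, with 3.50, 2.15 and 3.38, were lowest in the caecum. Of the 5, 2 were apart between colon and ileum, where 4.04% of all genes compared were higher in the colon. Msln was 8.26-fold (5.4 to 13.2) and Krt19 2.16-fold (2.05 to 2.28) higher in the colon, and Krt19 is also made by epithelium. Epithelial markers, 6 genes with none at 0 or apart, summed to 132, 139 and 154 RPKM, and 4 of the 6 had that order singly. Epcam, the epithelial marker with the highest RPKM, ran the opposite way with 50, 38.8 and 36.3, and colon over ileum was 0.716-fold (0.686 to 0.746). Cldn6 was highest in the caecum, with 24.0, 34.2 and 31.0 RPKM. Smooth muscle markers summed to 1080, 413 and 567 RPKM. Of the 6, 5 were lower than in the ileum by 2-fold or more in the caecum and 4 in the colon. Over all genes compared, these shares were 2.52% and 4.29%. Des was highest in the caecum, with 9.19, 12.8 and 8.23 RPKM. The sums of the endothelial, gonad, and urothelium and kidney lists had the order of Inhba too. Singly, 2 of 5, 1 of 7 and 2 of 5 of their genes had it. The urothelium and kidney list summed to 5.87, 11.3 and 21.4 RPKM, with Upk1b and Six2 in that order. Six2 had 2, 414 and 1274 counts, while Pax2 was highest in the caecum with 5, 25 and 2. The part of these cell types and tissues in the levels of Inhba, Tgfb2 and Tgfb3 was not tested.

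Inha (ENSMUSG00000032968, chromosome 1, 75503652 to 75506941, plus strand), the inhibin alpha subunit, had 144, 214 and 152 counts, or 1.94, 2.25 and 2.02 RPKM. No pair of segments differed beyond counting error, with 1.14-fold (0.921 to 1.42) for caecum over ileum, 1.11-fold (0.900 to 1.38) for caecum over colon and 1.03-fold (0.811 to 1.30) for colon over ileum. Inha is best known from gonad and adrenal, and the 7 genes of the gonad list summed to 1.42, 1.81 and 2.33 RPKM. Star, a cholesterol carrier of steroid-making cells, had 144, 236 and 164 counts, and caecum over colon was 1.14-fold (0.929 to 1.40). Cyp11a1, the enzyme that starts steroid synthesis, had 10, 22 and 86 counts, and colon over ileum was 8.36-fold (4.33 to 18). Amh, the hormone of Sertoli cells, had 10, 8 and 8 counts, Nr5a1, a steroidogenic factor, had 11, 4 and 2, and Foxl2, of the ovary, had 0, 2 and 0. Of 4 gonad genes compared between caecum and colon, 1 was higher in the caecum, Ddx4, with 28, 68 and 19 counts. Lower there were 2, Cyp11a1 and Dazl, the latter with 16, 10 and 27 counts. Of 4 between colon and ileum, 1 was higher in the colon and 0 lower. Over all genes compared, the shares higher and lower were 5.11% and 2.74% for caecum over colon, and 4.04% and 4.29% for colon over ileum. The part of gonad cells in the level of Inha was not tested.

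Inhbb (ENSMUSG00000037035, chromosome 1, 121312042 to 121318825, minus strand), the beta B subunit, had 12, 12 and 10 counts, or 0.0587, 0.0438 and 0.0440 RPKM. A difference was not detectable at this depth, since colon over ileum was 0.810-fold (0.313 to 2.05). Inhbb and Inhba both had 12 counts in the ileum, and in the colon they had 10 and 221.

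The balance between the subunits differed along the gut. Inha took 91.3%, 80.1% and 47.4% of the summed RPKM of the 3 subunit genes in ileum, caecum and colon, and Inhba 5.93%, 18.3% and 51.5%. The ratio of Inha to Inhba in RPKM was 15.4, 4.38 and 0.920. In the colon the alpha and beta A transcripts were thus about equally abundant per length. Transcript levels do not give the amounts of dimers.

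**Figure D3:**
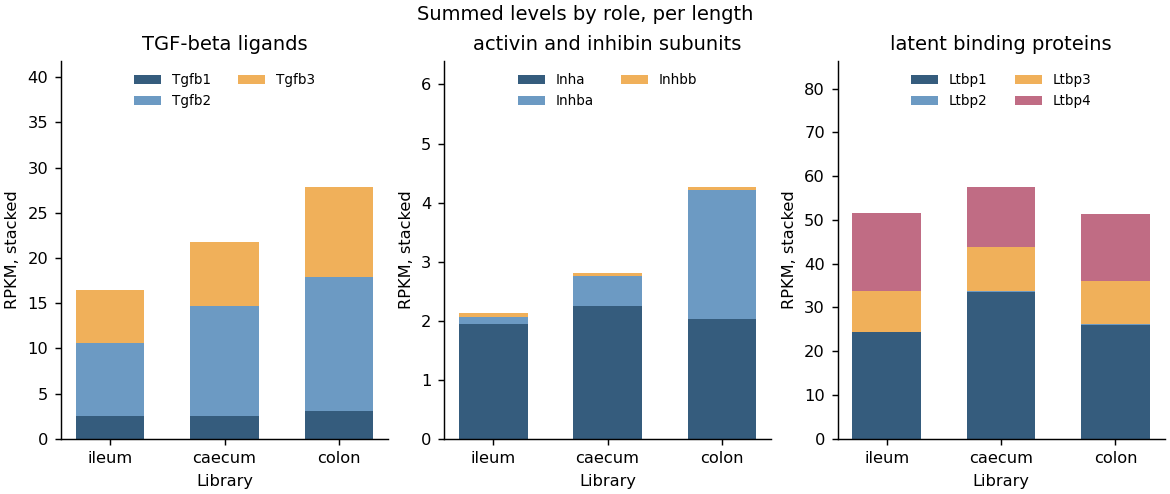
Stacked RPKM of the TGF-beta ligands, of the activin and inhibin subunits and of the latent binding proteins in each library, with a separate axis from 0 for each panel. The ligand sum is 16.4, 21.7 and 27.9 RPKM in ileum, caecum and colon, the subunit sum 2.13, 2.80 and 4.26 and the binding protein sum 51.6, 57.6 and 51.5.

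Among the latent binding proteins, Ltbp1 was the most abundant in every segment and highest in the caecum. Ltbp1 (ENSMUSG00000001870, chromosome 17, 75404908 to 75791852, plus strand), which binds all 3 TGF-beta isoforms, had 13030, 23092 and 14165 counts, or 24.3, 33.5 and 26.1 RPKM, in ileum, caecum and colon. It was 1.36-fold (1.33 to 1.39) above the ileum in the caecum and 1.29-fold (1.26 to 1.32) above the colon. Colon and ileum were close, at 1.06-fold (1.03 to 1.08). Its level was above that of 88.0% of the genes with at least 20 counts in the caecum library.

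Ltbp4 (ENSMUSG00000040488, chromosome 7, 28090155 to 28122711, minus strand), known for its role in elastic fibres and the one that mainly carries TGF-beta 1, ran the other way. It had 5744, 5686 and 5036 counts, or 17.7, 13.7 and 15.3 RPKM, and was 1.31-fold (1.27 to 1.36) above the caecum in the ileum. The colon lay between, with 1.12-fold (1.08 to 1.16) for colon over caecum. The ratio of Ltbp1 to Ltbp4 in RPKM was accordingly 1.37, 2.46 and 1.70 in ileum, caecum and colon.

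Ltbp3 (ENSMUSG00000024940, chromosome 19, 5740904 to 5758532, plus strand), a carrier of latent TGF-beta known from bone and teeth, was nearly level. It had 2440, 3397 and 2633 counts, or 9.37, 10.1 and 9.97 RPKM, with 1.07-fold (1.02 to 1.13) for caecum over ileum and 1.02-fold (0.970 to 1.07) for caecum over colon.

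Ltbp2 (ENSMUSG00000002020, chromosome 12, 86124162 to 86217482, minus strand), a matrix protein of the family that does not bind latent TGF-beta, had the lowest RPKM of the 4. It had 58, 126 and 35 counts, or 0.141, 0.238 and 0.0841 RPKM. The caecum was 2.85-fold (1.94 to 4.27) higher than the colon and 1.67-fold (1.21 to 2.32) higher than the ileum, and the ileum 1.71-fold (1.10 to 2.67) higher than the colon. The interval for caecum over colon reaches below 2-fold, and on RPKM with a pseudocount of 0.1, which is of the size of the values themselves, log2 was 0.87 where scaled counts gave 1.51.

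Markers of enteric neurons, 5 genes with none at 0, summed to 86.8, 99.8 and 52.0 RPKM, the same order as Ltbp2, and 3 of the 5 had that order singly. Ret was lowest in the ileum, with 20.9, 28.7 and 23.5 RPKM, and Prph highest there, with 11.9, 9.87 and 2.24. In each comparison with the colon, 3 of the 5 were apart, all lower in the colon. Of all genes compared, 5.11% were higher in caecum than colon and 4.29% lower in colon than ileum. Pericyte markers, 5 genes with none at 0, summed to 79.2, 30.9 and 73.1 RPKM, lowest in the caecum as was Ltbp4, and 4 of the 5, all but Cspg4, were singly lowest there. Of the 5, 3 were at least 2-fold lower in the caecum than in either neighbour. Over all genes compared, 2.52% were lower in caecum than ileum and 2.74% lower in caecum than colon. The summed smooth muscle markers given above were lowest in the caecum too, and 4 of the 6 were singly lowest there. Endothelial markers summed to 48.0, 48.4 and 58.1 RPKM and macrophage markers to 10.7, 12.4 and 11.4, with 0 of 5 genes apart in either list. Platelet markers, at 2.70, 2.97 and 2.57 RPKM, and erythroid markers, at 780, 837 and 774, also had sums in the order of Ltbp2. In each of these lists 1 of 4 genes had it singly and 0 were apart. The part of these cell types in the levels of Ltbp2 and Ltbp4 was not tested.

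Summed, the latent binding proteins came to 51.6, 57.6 and 51.5 RPKM in ileum, caecum and colon. Ltbp1 took 47.2%, 58.2% and 50.7% of the sum, Ltbp4 34.4%, 23.7% and 29.8%, Ltbp3 18.2%, 17.6% and 19.4%, and Ltbp2 under all of these with 0.274%, 0.413% and 0.163%. Set against the ligands, the summed binding proteins were 3.14, 2.65 and 1.85 times the summed TGF-betas. This ratio was lowest in the colon, where the ligand sum was highest and the sum of binding proteins was about that of the ileum.

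**Figure D4:**
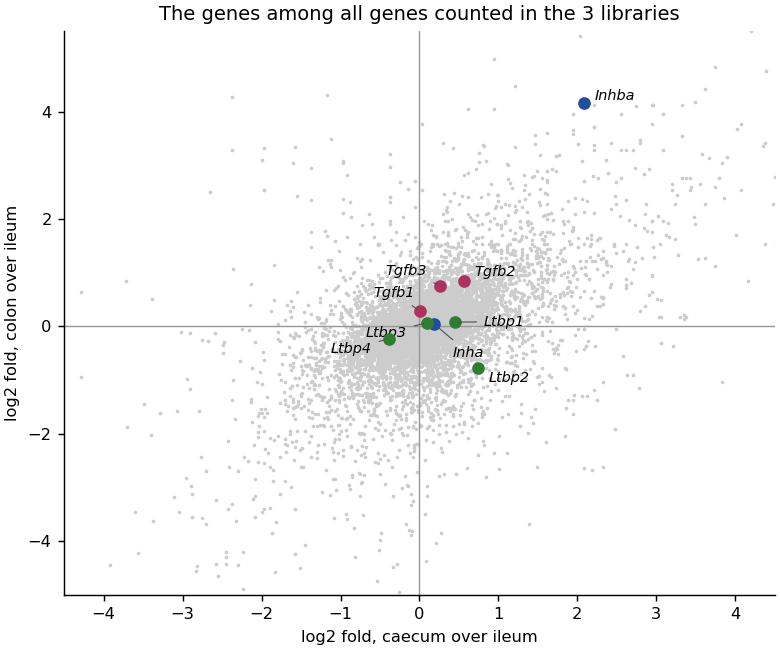
Log2 fold of scaled counts for caecum over ileum (x axis) and colon over ileum (y axis) in every gene counted in all 3 libraries with at least 20 counts in 1 of them (grey, 53 genes lie beyond the axes), with 9 of the 10 genes on top: ligands in red, activin and inhibin subunits in blue, binding proteins in green. Both axes share the ileum library. Inhba lies far at the upper right, at 2.08 and 4.16, and the others lie within the cloud.

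Receptors, the next step of the pathway, were present in every segment and none of the 10 listed was apart in any comparison. The median log2 fold of the list was -0.01, 0.12 and -0.05 for caecum against ileum, caecum against colon and colon against ileum. Tgfbr1, the type I receptor of TGF-beta, had the highest RPKM of the list with 38.1, 46.3 and 37.0 in ileum, caecum and colon. Its partner Tgfbr2 had 7.61, 8.25 and 7.02 RPKM, and Acvr2a, a type II receptor of activins, had 11.6, 11.2 and 15.1. The intracellular transducers behaved alike, with 0 of 10 compared apart and medians of 0.12, 0.03 and 0.21. Of all genes compared, 4.59% were higher and 2.52% lower for caecum over ileum. For caecum over colon these shares were 5.11% and 2.74%, and for colon over ileum 4.04% and 4.29%. With 10 genes a list, 0 apart cannot be told apart from these shares. Among them Ski, a co-repressor of SMADs, had the highest RPKM with 47.5, 55.3 and 54.1, and Smad3 had 11.4, 14.0 and 14.3.

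Follistatin, the secreted protein that traps activins, differed strongly between the segments and was highest where Inhba was intermediate. Fst had 2487, 8870 and 1602 counts, or 18.5, 51.2 and 11.7 RPKM, in ileum, caecum and colon. It was 2.74-fold (2.62 to 2.87) above the ileum in the caecum and 4.38-fold (4.15 to 4.62) above the colon. In RPKM, Fst exceeded Inhba 147-fold in the ileum, 99.8-fold in the caecum and 5.34-fold in the colon, where Fst was lowest and Inhba highest. The ileum ratio rests on 12 counts of Inhba. For caecum over ileum, the 2.74-fold of Fst lies inside the interval of Inhba, 2.27 to 8.60, so these 2 ratios are not set apart beyond counting error. Fstl3, a related activin binder, had few counts, 152, 124 and 214, and stood 2.18-fold (1.74 to 2.74) above the caecum in the colon. Fstl1, a relative with another function, had the highest RPKM of this list with 73.2, 74.7 and 78.6. Of 4 genes compared on the list, 1 was higher and 0 lower in caecum than ileum, and 1 higher and 1 lower than in the colon. Between colon and ileum 0 were apart, and the medians were 0.27, -0.21 and 0.27. Over all genes compared, the shares higher and lower were 4.59% and 2.52%, 5.11% and 2.74%, and 4.04% and 4.29% in these comparisons. Counts among 4 genes are not read as a result about the list.

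Of 16 genes for anchors and activators of the latent complex, 1 was higher and 2 lower in caecum than ileum, 1 was higher and 1 lower than in the colon, and 0 were apart between colon and ileum. The medians were 0.27, 0.14 and 0.15. Over all genes compared, 4.59% were higher and 2.52% lower in caecum than ileum. For caecum over colon these shares were 5.11% and 2.74%, and for colon over ileum 4.04% and 4.29%. Counts this small among 16 genes are not read as a result about the list. Itgb3 and Itgb6 encode integrin beta chains that pair with the alpha v chain and bind the latency propeptide. Itgb3 had 940, 460 and 922 counts and was lowest in the caecum, with the ileum 2.66-fold (2.37 to 2.98) and the colon 2.53-fold (2.26 to 2.84) above it. Itgb6, a chain of epithelium, had 290, 182 and 160 counts and was 2.07-fold (1.72 to 2.51) above the caecum in the ileum. Itgb8, a further beta chain of the list, went the other way, with 338, 794 and 474 counts. It was 1.81-fold (1.59 to 2.06) above the ileum in the caecum and falls outside the naming rule. Itgb1, a widely used beta chain, had the highest RPKM with 220, 181 and 211.

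Matrix partners on the same list did not share 1 order. Fn1, fibronectin, to which LTBP1 is anchored, had 55.6, 114 and 97.0 RPKM and was 2.03-fold (2 to 2.06) above the ileum in the caecum. Dcn, decorin, a proteoglycan that binds TGF-beta, had 23.9, 29.7 and 13.1 RPKM and was 2.27-fold (2.13 to 2.42) above the colon in the caecum. Fbn1, fibrillin 1, an anchor of latent binding proteins, was higher in the colon, with 17.0, 13.6 and 27.3 RPKM, and lay at the threshold with 0.501-fold (0.489 to 0.513) for caecum over colon. Fbn2, fibrillin 2, had its peak in the caecum as did Ltbp1, with 28.5, 48.1 and 31.2 RPKM, and there exceeded the ileum 1.67-fold (1.64 to 1.70). Fbn1 and Fbn2 fall outside the naming rule and were chosen after their values were seen.

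Genes known to respond to TGF-beta did not share 1 order. Of 12 compared between caecum and ileum, 2 were higher in the caecum, Postn and Fn1, and 1 lower, Tagln. Of 13 compared with the colon, 0 were higher in the caecum and 1 lower, Cdkn2b, and between colon and ileum 1 was higher in the colon, Cdkn2b, and 1 lower, Tagln. The medians were 0.34, 0.03 and 0.29. Over all genes compared, the shares higher and lower were 4.59% and 2.52% for caecum over ileum and 5.11% and 2.74% for caecum over colon. For colon over ileum they were 4.04% and 4.29%. Counts this small among 12 or 13 genes are not read as a result about the list. Cdkn2b, a cell cycle inhibitor, had 0, 7 and 50 counts, the order of Inhba and Tgfb2, and was 9.03-fold (4.07 to 23.6) above the caecum in the colon. Against a floor of 3 counts for the ileum, the 50 counts of the colon were 16.2-fold higher, and the exact 95% interval, which also covers the counting error of the colon, starts at 12.7-fold. On RPKM with a pseudocount of 0.1, log2 colon over ileum was 3.01 for Cdkn2b. Postn, periostin, a matrix protein, had 35.1, 98.1 and 51.1 RPKM and was 2.76-fold (2.71 to 2.82) above the ileum in the caecum. Tagln, also a smooth muscle marker, had 107, 42.2 and 54.0 RPKM and was 2.57-fold (2.48 to 2.66) above the caecum in the ileum. Tsc22d1 had the highest RPKM of this list, with 98.4, 128 and 101. Fn1, Smad7 and Skil stand on this list and on another.

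**Figure D5:**
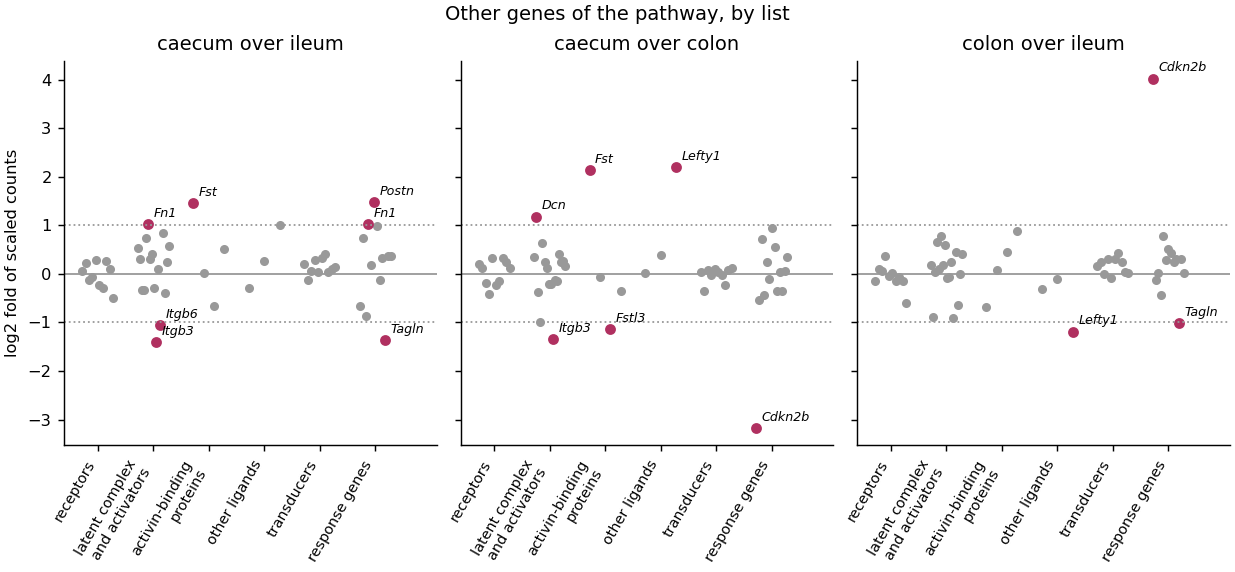
Log2 fold of scaled counts for the other genes of the pathway, by list, in the 3 comparisons. Dotted lines mark 2-fold and genes beyond them are named in red. A library with 0 counts was set to 3, so the value of Cdkn2b for colon over ileum is set against this floor, and Fn1 stands on 2 lists. No receptor or transducer lies beyond the lines, and Fst reaches 2.13 for caecum over colon.

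Among named genes with at least 100 counts in a library and counts in all 3, those nearest to Inhba in their folds over the ileum were Grin2b, Rprm and Galnt5. The likeness is the distance between the log2 folds of caecum and colon over ileum, a measure over 3 libraries and 12032 candidates, and it was 0.672, 0.769 and 0.878. Grin2b, an NMDA receptor subunit, had 8, 70 and 142 counts in ileum, caecum and colon, and Rprm, a p53 target of the cell cycle, had 98, 512 and 1062. Galnt5, an enzyme that starts O-glycans, had 19, 192 and 343. For Ltbp2 the nearest were Slco5a1, Islr2 and Tmem145, at 0.031, 0.057 and 0.089. Islr2, a membrane protein of neurons, had 600, 1300 and 348 counts, and Slco5a1, of a transporter family, had 533, 1140 and 317.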

How the data were processed

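Polyadenylated RNA of 3 gut segments was read with 1 sample per segment. Bowtie 0.12.7, DESeq and mm9 appear in the submitters' processing notes, with no role for each; the counting program, annotation release and use of strand are not given in the sources used here. Per the file headers, the deposited table holds expected counts, some with fractions of 0.5, and RPKM, which the authors had divided by gene length and depth. Both columns of a segment were averaged, and mean counts were rounded to whole numbers. RPKM served for levels between genes. Starts are counted from 1.

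TMM factors from edgeR 4.0.16 (R 4.3.3) scaled the libraries. Each fold has an exact 95% Clopper-Pearson interval, from the binomial conditional on the sum of both counts, computed with SciPy 1.17.1 in Python 3.11.15. Where a library had 0 counts, the fold was set against a floor of 3 counts. The procedure was tested on counts simulated with counting error alone, with known folds set only in well-counted genes. That test does not cover spread between animals or known folds at low counts. With 1 library per segment there was no test across samples.

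The members, the 6 lists of pathway genes, the marker lists and the tests were chosen with earlier results of these data known. The text names all members, and of each pathway list up to 4 genes apart with the largest bounds and the gene with the highest RPKM. Tgfbr2, Acvr2a, Smad3, Itgb8, Fbn1, Fbn2, Nodal and single marker genes are named beside these as examples. Emr1 was used for Adgre1. RefSeq promoters in GRCm38.p6 were found for 9 of the 10 members. Alternatives were median-of-ratios factors from DESeq2 1.42.0, total counts, other count minimums, single columns, intervals wholly beyond 2-fold, and RPKM with a pseudocount of 0.1.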

Additional observations from a re-analysis of the deposited data

How the results depend on the processing

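No paired analysis was possible because each segment has 1 sample and its deposited columns come from that sample. Over 160 values of the 27 member folds under 6 alternatives, 0 changed direction among those 2-fold or more apart. Only 1 left its counting interval, Ltbp2 for caecum over colon on RPKM with a pseudocount. Of the 160 values, the 25 under the minimum of 100 counts are the main folds themselves, so they could not move. Inhba stayed 2-fold or more apart in all 3 comparisons under each alternative, except that a minimum of 100 counts, which it reaches only in the colon, left 0 members apart for caecum over ileum. For caecum over colon, intervals wholly beyond 2-fold left 1 member and RPKM with a pseudocount left 1, in both cases Inhba without Ltbp2. The numbers of all genes apart were 1268, 1404 and 1465 for caecum against ileum, caecum against colon and colon against ileum. They were 3450, 3721 and 3761 with no count minimum, 707, 804 and 810 with a minimum of 100 counts, and 630, 741 and 769 with intervals wholly beyond 2-fold. RPKM with a pseudocount gave 843, 964 and 1024. With only 1 deposited column per segment they ranged from 1318 to 1321, 1435 to 1442 and 1495 to 1509, and the members apart were 1, 2 and 1 with either column. Depth limits Inhbb, at 12 counts or fewer, and Inhba in the ileum.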

Other observations

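Other ligands of the activin and nodal branch were mostly silent in the 3 segments. Of the 9 listed, Inhbc and Inhbe, activin subunits of the liver, had 0 counts in every library, and Nodal had 2, 6 and 4 counts in ileum, caecum and colon. Gdf11, which signals through activin receptors, had the highest level of the list with 6.35, 7.76 and 5.97 RPKM. Lefty1, a nodal antagonist, was sparse and highest in the caecum, with 20, 52 and 9 counts, and was 4.57-fold (2.23 to 10.6) above the colon in the caecum. The ileum stood 2.29-fold (0.995 to 5.70) above the colon for Lefty1, an interval that holds 1. Of 3 genes of the list compared, 0 were apart for caecum over ileum, 1 was higher in caecum than colon and 1 was lower in colon than ileum. The medians were 0.27, 0.38 and -0.32 on the log2 scale. Of all genes compared, 5.11% were higher in caecum than colon and 4.29% lower in colon than ileum. Counts among 3 genes are not read as a result about the list.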
